A study of Mus musculus with 12 samples.

Results

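The Slc25a genes encode the mitochondrial carrier family, and the 47 protein-coding mouse genes whose symbol starts with Slc25a were taken from the 53700 gene identifiers of a heart RNA-Seq count table. All 47 symbols of this kind in RefSeq were found, 44 under their current symbol and 3 (Slc25a51, Slc25a53 and Slc25a54) by an older name. The members were selected by name alone and grouped by the substrate they carry, with earlier results of these data known. Of the 47, 40 had enough counts to be tested and 7 did not.

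Carriers of this family are small proteins that sit mostly in the inner mitochondrial membrane, where they exchange or import metabolites that cannot cross a lipid bilayer by themselves. In the heart their best known task is the exchange of cytosolic ADP for mitochondrial ATP, fed by phosphate import, fatty acid entry as acylcarnitines and the malate-aspartate shuttle. Other members bring in cofactors, nucleotides, glutathione or the iron used for heme and iron-sulfur clusters.

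RNA was measured in whole hearts of 12 male mice, 6 ac-WT and 6 ac-CYB5R3-KO, with 1 library per mouse. Both groups carried Myh6-CreERT2, a tamoxifen-activated Cre recombinase driven by the cardiomyocyte Myh6 promoter, and both received tamoxifen at 33 mg/kg per day for 5 days from 10 to 13 weeks of age. They differed in Cyb5r3, which was wild type in ac-WT and flanked by loxP sites on both alleles in ac-CYB5R3-KO, and hearts were taken 5 days after tamoxifen. The mice were backcrossed 3 times to C57BL/6J, so that other segregating differences between mice may remain. The promoter of the Cre is active in cardiomyocytes, so other heart cells were not targeted.

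Cyb5r3, which encodes an NADH-dependent reductase, was examined first as a check of the labels. The ac-WT hearts spanned 81.9 to 185.5 CPM and the ac-CYB5R3-KO hearts 42.1 to 67.4 CPM, with no overlap between groups. CPM here means reads per 1000000 counted reads, after the TMM scaling of library size. The log2 fold change was -1.22 ± 0.19 (SE; edgeR adjusted p = 0.045). Libraries held 43393183 to 53754284 counts, and 24.0% to 35.3% of these fell on mitochondrially encoded genes. The ac-WT mice 2 and 3 stood apart, with TMM factors of 0.570 and 0.723 against 0.988 to 1.22 in the other mice and the highest mitochondrially encoded shares, 35.3% and 34.8%. Values without these 2 mice are given beside the members and ratios past 0.05 and beside the iron carriers.

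The 2 adenine nucleotide translocators of the heart are shown by the promoter windows of their genes. They were chosen because one of these genes was lower in ac-CYB5R3-KO hearts at an unadjusted edgeR p below 0.01 and the other was not. Each window has 300 bases of RefSeq sequence (GRCm38.p6) around the annotated start of the gene, written 5′ to 3′ on the strand of the gene. Capitals mark TATAA and the GC box GGGCGG, each searched on both strands. Slc25a4 lies on the minus strand at chr8:46211013-46211312 and Slc25a5 on the plus strand at chrX:36795347-36795646.
Slc25a4: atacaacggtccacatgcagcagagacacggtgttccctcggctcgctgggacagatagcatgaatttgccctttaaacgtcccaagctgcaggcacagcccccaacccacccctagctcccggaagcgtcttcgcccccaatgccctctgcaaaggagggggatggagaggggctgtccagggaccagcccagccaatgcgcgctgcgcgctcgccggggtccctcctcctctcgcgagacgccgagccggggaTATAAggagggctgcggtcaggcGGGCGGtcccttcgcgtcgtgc
Slc25a5: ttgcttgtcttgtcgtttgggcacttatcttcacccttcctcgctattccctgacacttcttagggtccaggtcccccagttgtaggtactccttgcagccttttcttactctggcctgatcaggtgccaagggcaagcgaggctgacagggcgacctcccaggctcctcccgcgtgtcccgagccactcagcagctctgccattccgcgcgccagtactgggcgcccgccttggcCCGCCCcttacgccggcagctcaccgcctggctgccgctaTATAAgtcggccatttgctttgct

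Each window held 1 TATAA and 1 GC box, and neither held AAGGTCA, the letters linked to estrogen-related receptors. In RefSeq, 36 of the 47 members had promoter windows, 46 windows in all. TATAA was found in 5 of these 46 windows (10.9%) and in 24.9% of all 32851 windows of the same length. GGGCGG was found in 38 of the 46 (82.6%) against 35.7% of all windows. AAGGTCA was found in 2.17% of member windows and 4.72% of all windows. These are matches of letters and were not tested for use by any factor.

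Slc25a4, also known as Ant1, encodes the main ADP/ATP translocator of heart and skeletal muscle. It was the most abundant member, at 1238 CPM per kilobase of exon in ac-WT hearts, and it supplied 61.6% ± 5.66 (SD, n = 6) of all Slc25a counts there. In ac-WT hearts Slc25a4 ranged from 1901 CPM through a median of 2190 to 5817 CPM. In ac-CYB5R3-KO hearts it ranged from 1189 CPM through a median of 1525 to 1822 CPM. Every ac-CYB5R3-KO heart was below every ac-WT heart, a separation in this direction seen for 1.04% of all 17847 genes tested and for 1 of the 40 tested members. Separation in the other direction was seen for 0.51% of genes and for 0 of the 40.

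The log2 fold change of Slc25a4 was -0.92 ± 0.27 (SE), with an edgeR p of 0.0043 and an adjusted p of 0.188 over all genes. The exact permutation test on log2(CPM + 1) gave p = 0.00216, two-sided, which is the smallest p that 6 mice against 6 can give. The size of the difference rested in part on ac-WT mice 2 and 3, at 5817 and 3355 CPM. Without them the log2 fold change was -0.42 (edgeR adjusted p = 0.403), and the member stayed past an unadjusted p of 0.01. With 1 surrogate variable in the model it was -0.38 (edgeR adjusted p = 0.644) and was no longer past 0.01.

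In all, 1 member was lower at p below 0.01, where 3.27% of all genes were, and 0 were higher, where 1.33% of all genes were. With the adjusted p below 0.05 edgeR called 0 of 40 members and 0.101% of all genes. DESeq2 called 1 member, Slc25a4, at that level, among 451 genes in all. At p below 0.05, 9 of 40 members were lower and 2 were higher, against 9.73% and 4.91% of all genes. Without ac-WT mice 2 and 3 these numbers were 1 (Slc25a4) and 1 (Slc25a23). With total counts as library size in place of TMM they were 1 (Slc25a4) and 2 (Slc25a16 and Slc25a23). The median log2 fold change over the 40 members was -0.09, and over all genes it was -0.01. Without ac-WT mice 2 and 3 these medians were -0.01 and 0.02 with 21 of 40 members below 0, and with 1 surrogate variable the members' median was -0.01, also with 21 below 0. Negative values were found for 26 of the 40 (65.0%) and for 51.2% of all genes, but with total counts for 14 of the 40, where the members' median was 0.19 and that of all genes 0.26. Slc25a4 was at -0.51 with total counts. Since the hearts were sequenced whole, fewer cells of a type and less RNA per cell cannot be told apart for any of these values.

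**Figure D1:**
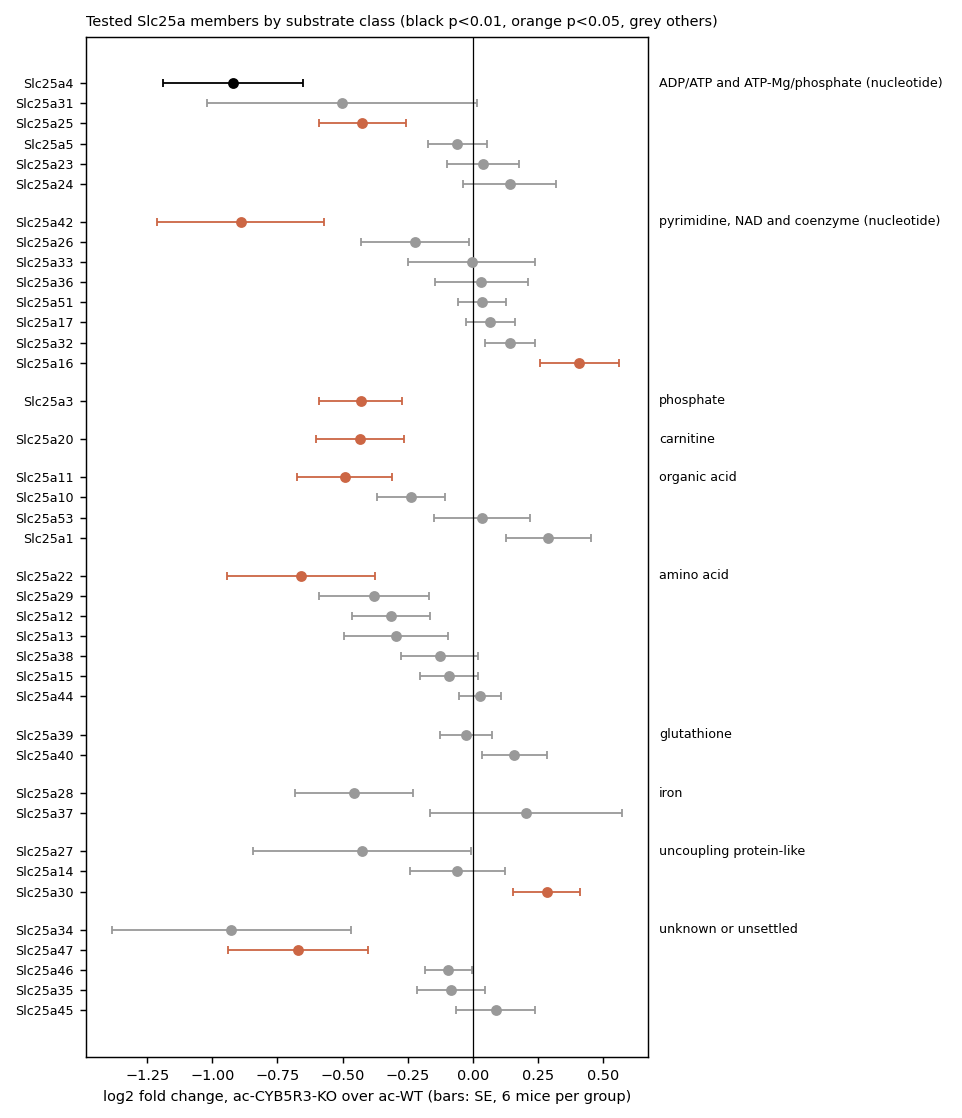
Log2 fold change of the tested members named in the text, ac-CYB5R3-KO over ac-WT, grouped by substrate class, with the SE from edgeR as bars and colors for the unadjusted p. Slc25a4, in black, is the 1 member with p below 0.01, and the members in orange with p from 0.01 to 0.05 lie on both sides of 0.

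The other ADP/ATP translocators had no p below 0.05. Slc25a5 (Ant2), the translocator of most proliferating cells, ranged from 177.2 through 196.8 to 245.8 CPM in ac-WT and from 152.6 through 201.4 to 221.9 CPM in ac-CYB5R3-KO hearts. The groups overlapped, and the log2 fold change was -0.06 ± 0.11 (SE, with exact permutation p = 0.584). Slc25a31 (Ant4), known from germ cells, had a mean of 0.282 CPM in ac-WT and 0.205 CPM in ac-CYB5R3-KO hearts (log2 fold change -0.50 ± 0.52). Closely similar translocator sequences may share reads, and how such reads were counted is not given in the sources used here.

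The ratio of Slc25a4 to Slc25a5 within a heart does not depend on library scaling. It ranged from 8.80 through 11.3 to 27.3 reads of Slc25a4 per read of Slc25a5 in ac-WT hearts, and from 7.23 through 8.0 to 8.51 in ac-CYB5R3-KO hearts. All 6 ac-CYB5R3-KO hearts were below all 6 ac-WT hearts. The mean log2 ratio was 3.72 ± 0.61 (SD, n = 6) in ac-WT and 2.98 ± 0.09 in ac-CYB5R3-KO (exact permutation p = 0.00216, adjusted p = 0.0216 over 10 ratios). Without ac-WT mice 2 and 3 the difference fell from -0.75 to -0.39 (exact permutation p = 0.00476, the smallest that 4 against 6 can give).

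The share of Slc25a counts held by Slc25a4 spanned 57.4% to 72.1% among ac-WT hearts and 49.5% to 56.7% among ac-CYB5R3-KO hearts. The difference of -8.81 percentage points (exact permutation p = 0.00216) became -5.62 without ac-WT mice 2 and 3 (exact permutation p = 0.00952). The summed level of the other 46 members was 1680 ± 332 CPM in ac-WT and 1371 ± 111 CPM in ac-CYB5R3-KO hearts (SD, n = 6 each, exact permutation p = 0.0238). It ranged from 1408 through 1528 to 2250 CPM in ac-WT and from 1211 through 1365 to 1550 CPM in ac-CYB5R3-KO hearts, which overlapped. Unlike the share, this sum depends on the TMM scaling, with low factors in ac-WT mice 2 and 3. Its value with total counts or without these mice is not given here. These share and sum tests were added after the data were seen, and the 10 ratio pairs were chosen with earlier results of these data known.

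**Figure D2:**
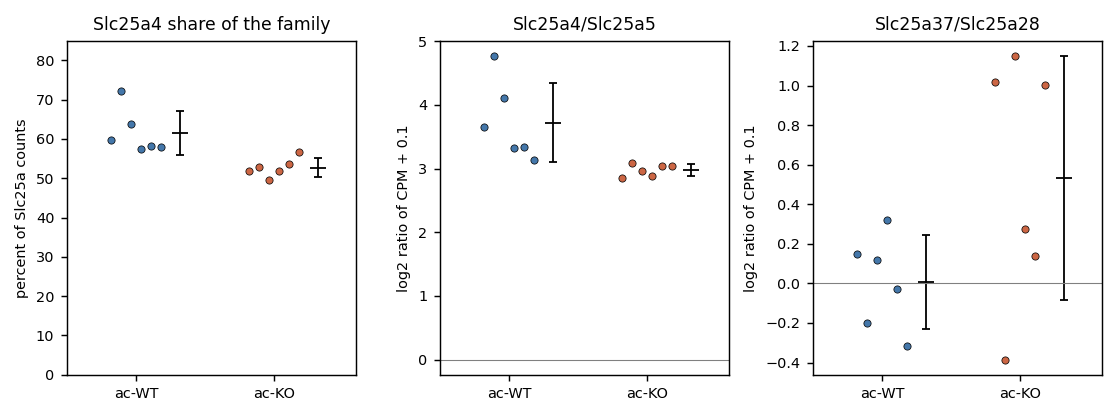
Slc25a4 as a percent of all Slc25a counts, and the log2 ratios Slc25a4/Slc25a5 and Slc25a37/Slc25a28, in each heart (points) with the mean and SD beside them, n = 6 per group. The first 2 measures do not overlap between groups, whereas the iron carrier ratio spans -0.38 to 1.15 among ac-CYB5R3-KO hearts and overlaps ac-WT.

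The calcium-regulated ATP-Mg/phosphate carriers adjust the size of the adenine nucleotide pool in the matrix. Of these, Slc25a25 averaged 9.99 ± 2.50 CPM in ac-WT and 7.44 ± 1.20 CPM in ac-CYB5R3-KO hearts, with a log2 fold change of -0.42 ± 0.17 (SE, with exact permutation p = 0.0476, edgeR adjusted p = 0.267). The fold change was -0.35 without ac-WT mice 2 and 3 and -0.32 without ac-WT mouse 1, its highest heart, neither past 0.05. The log2 fold changes of Slc25a23 and Slc25a24 were 0.04 ± 0.14 and 0.14 ± 0.18. Slc25a41, the form without the calcium-binding domain, had 0 to 2 counts per library and was not tested. The Slc25a25 to Slc25a24 log2 ratio differed by -0.58 (exact permutation p = 0.0476, adjusted p = 0.119). Without ac-WT mice 2 and 3 it was -0.26 (exact permutation p = 0.176), and without ac-WT mouse 2 alone -0.38 (exact permutation p = 0.0801).

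Slc25a3, the single phosphate carrier, imports the phosphate that ATP synthase joins to ADP. It was second to Slc25a4 in level, at 124.7 CPM per kilobase of exon in ac-WT hearts. Its level ranged from 549.4 through 628.6 to 981.3 CPM in ac-WT and from 412.9 through 510.1 to 601.8 CPM in ac-CYB5R3-KO hearts. Of the ac-WT hearts, 3 were above every ac-CYB5R3-KO heart, so the groups overlapped in part. The log2 fold change was -0.43 ± 0.16 (SE, with exact permutation p = 0.0130, edgeR adjusted p = 0.247), and without ac-WT mice 2 and 3 it was -0.20. Relative to Slc25a4 the phosphate carrier was higher in ac-CYB5R3-KO hearts, by 0.40 in log2 ratio (exact permutation p = 0.00433, adjusted p = 0.0216). This difference was 0.22 without ac-WT mice 2 and 3 (exact permutation p = 0.0143).

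Slc25a20 carries acylcarnitines into the matrix in exchange for carnitine. It ranged from 33.02 through 46.6 to 69.4 CPM in ac-WT and from 28.6 through 34.3 to 44.8 CPM in ac-CYB5R3-KO hearts. The groups overlapped, with a log2 fold change of -0.43 ± 0.17 (SE, with exact permutation p = 0.0433, edgeR adjusted p = 0.266). Without ac-WT mice 2 and 3 it was -0.20.

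Among the organic acid carriers, the oxoglutarate/malate carrier Slc25a11, one arm of the malate-aspartate shuttle, was the most abundant per length. Its level ranged from 134.0 through 160.7 to 298.5 CPM in ac-WT and from 110.6 through 126.3 to 162.2 CPM in ac-CYB5R3-KO hearts. The highest ac-CYB5R3-KO heart was just above the ac-WT median, and the log2 fold change was -0.49 ± 0.18 (SE, with exact permutation p = 0.0216, edgeR adjusted p = 0.249). It was also -0.20 when ac-WT mice 2 and 3 were left out. The dicarboxylate carrier Slc25a10 had a log2 fold change of -0.24 ± 0.13, the citrate carrier Slc25a1 of 0.29 ± 0.16 and Slc25a53, whose substrate is not settled, of 0.04 ± 0.18. The oxodicarboxylate carrier Slc25a21 had 0 to 5 counts per library and was not tested.

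Of the amino acid carriers, 6 of 7 tested had a log2 fold change below 0, as had 51.2% of all genes, and 1 had p below 0.05. The aspartate/glutamate carrier Slc25a13, the other arm of the shuttle and the highest of the class per length, ranged from 36.7 through 52.3 to 70.1 CPM in ac-WT and from 30.3 through 39.2 to 62.1 CPM in ac-CYB5R3-KO hearts. Its groups overlapped (log2 fold change -0.29 ± 0.20, exact permutation p = 0.180). Its paralog Slc25a12 had a log2 fold change of -0.31 ± 0.15 (exact permutation p = 0.0952; -0.07 without ac-WT mice 2 and 3), and the ratio of the pair was close to 1 in both groups, with medians of 1.07 and 1.11. The glutamate carrier Slc25a22 was the member past 0.05, with a mean of 14.3 ± 8.27 CPM in ac-WT and 9.04 ± 1.64 CPM in ac-CYB5R3-KO hearts (log2 fold change -0.66 ± 0.29, exact permutation p = 0.106, edgeR adjusted p = 0.309).

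The ac-WT mouse 3 alone had 30.1 CPM of Slc25a22, and without mice 2 and 3 the log2 fold change was -0.16. The ornithine carrier Slc25a15, the basic amino acid carrier Slc25a29, the glycine carrier Slc25a38 and the branched-chain amino acid carrier Slc25a44 had log2 fold changes from -0.38 to 0.03, none past 0.05. With total counts as library size only Slc25a22 and Slc25a29 of this class were below 0, at -0.27 and -0.04. Without ac-WT mice 2 and 3 Slc25a15 and Slc25a38 were above 0, at 0.003 and 0.12. The second glutamate carrier Slc25a18 had 3 to 22 counts per library and the second ornithine carrier Slc25a2 had 3 to 10, and neither was tested.

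**Figure D3:**
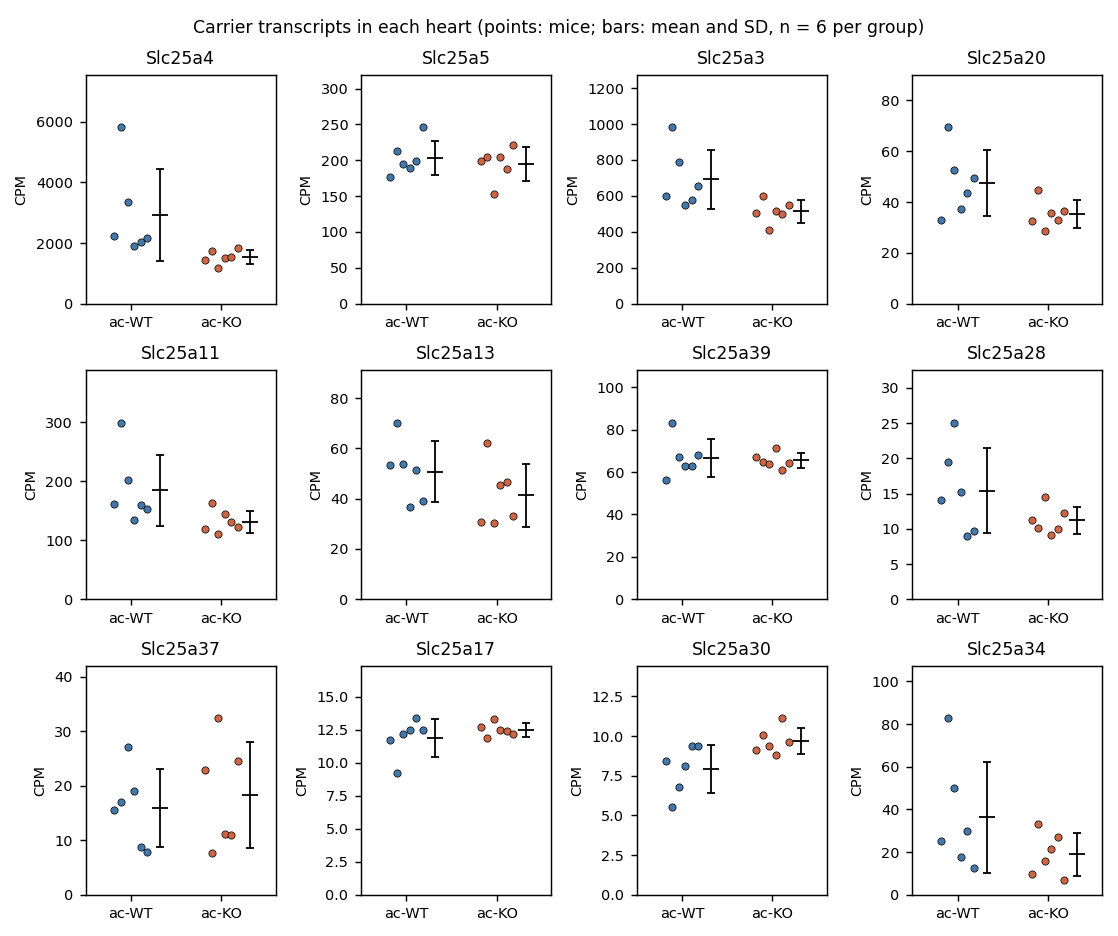
CPM of 12 members in each heart (points), with the mean and SD of 6 mice per group beside them and each axis starting at 0. Slc25a4 separates the groups, with 1901 CPM the lowest ac-WT value and 1822 CPM the highest ac-CYB5R3-KO value, and the other 11 members overlap.

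Carriers of pyrimidine nucleotides, NAD and coenzymes moved in no common direction, with 4 of 9 below 0. Slc25a17, a carrier of coenzyme A and related cofactors in peroxisomes, had the highest level per kilobase of exon in this class. It ranged from 9.19 through 12.3 to 13.3 CPM in ac-WT and from 11.9 through 12.4 to 13.3 CPM in ac-CYB5R3-KO hearts, which overlapped (log2 fold change 0.07 ± 0.09). Slc25a42, a carrier of coenzyme A, averaged 13.7 ± 8.51 CPM in ac-WT and 7.34 ± 0.989 CPM in ac-CYB5R3-KO hearts. The fold change of this gene, in log2, of -0.89 ± 0.32 (SE, with exact permutation p = 0.0693, edgeR adjusted p = 0.241) was -0.18 without ac-WT mice 2 and 3.

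Slc25a16, also linked to coenzyme A transport, was higher in ac-CYB5R3-KO hearts by 0.41 ± 0.15 in log2 (SE, with exact permutation p = 0.0152, edgeR adjusted p = 0.251), with 4 of 6 hearts above every ac-WT heart, and by 0.30 without ac-WT mice 2 and 3. The Slc25a42 to Slc25a16 log2 ratio was 1.01 ± 1.12 (SD, n = 6) in ac-WT and -0.09 ± 0.17 in ac-CYB5R3-KO hearts (exact permutation p = 0.0325, adjusted p = 0.108). The difference of -1.10 was -0.44 without ac-WT mice 2 and 3 (exact permutation p = 0.0952). The pyrimidine nucleotide carriers Slc25a33 and Slc25a36, the NAD carrier Slc25a51, the S-adenosylmethionine carrier Slc25a26 and the folate and FAD carrier Slc25a32 had log2 fold changes from -0.22 to 0.14, none with p below 0.05.

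Both iron carriers, the mitoferrins, overlapped between groups. Slc25a28 (mitoferrin 2), the form of most tissues, ranged from 8.99 through 14.6 to 25.0 CPM in ac-WT and from 9.18 through 10.7 to 14.6 CPM in ac-CYB5R3-KO hearts (log2 fold change -0.46 ± 0.23, exact permutation p = 0.169). Slc25a37 (mitoferrin 1), the form of developing red blood cells, ranged from 7.78 through 16.3 to 27.1 CPM in ac-WT and from 7.72 through 17.0 to 32.4 CPM in ac-CYB5R3-KO hearts (log2 fold change 0.20 ± 0.37, exact permutation p = 0.727). The ratio of Slc25a37 to Slc25a28 had a median of 1.03 in ac-WT and 1.61 in ac-CYB5R3-KO hearts (exact permutation p = 0.0974 for the log2 ratio, adjusted p = 0.170). The log2 fold changes were -0.08 for Slc25a28 and 0.52 for Slc25a37 without ac-WT mice 2 and 3.

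Red blood cell transcripts were examined beside the mitoferrins. Of 10 markers, 8 were matched and 6 tested, all with log2 fold changes above 0. Of these markers, 4 had p below 0.05, where 4.91% of all genes were higher, and 0 had an adjusted p below 0.05. Their summed level spanned 225.7 to 4491 CPM in ac-WT against 1329 to 12240 CPM in ac-CYB5R3-KO hearts, which overlapped (exact permutation p = 0.0714). Their part in the level of Slc25a37 was not tested.

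The glutathione carriers Slc25a39 and Slc25a40 did not differ at p below 0.05. Slc25a39 ranged from 56.1 through 65.0 to 83.2 CPM in ac-WT and from 61.1 through 64.7 to 71.3 CPM in ac-CYB5R3-KO hearts, which overlapped (log2 fold change -0.03 ± 0.10). Slc25a40 had a log2 fold change of 0.16 ± 0.13. Among the uncoupling protein-like members, Slc25a30 ranged from 5.56 through 8.26 to 9.39 CPM in ac-WT and from 8.80 through 9.50 to 11.1 CPM in ac-CYB5R3-KO hearts. It was higher by 0.28 ± 0.13 in log2 (SE, with exact permutation p = 0.0238, edgeR adjusted p = 0.331), with 3 of 6 ac-CYB5R3-KO hearts above all ac-WT hearts. The difference was 0.15 without ac-WT mice 2 and 3, where it was no longer past 0.05. The log2 fold changes of its relatives Slc25a14 and Slc25a27 were -0.06 ± 0.18 and -0.43 ± 0.42.

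Of the other 8 members with unknown or unsettled substrates, 5 were tested and 4 of these were below 0, as were 51.2% of all genes. Slc25a34, the highest of them per length, ranged from 12.5 through 27.5 to 82.6 CPM in ac-WT and from 7.12 through 18.5 to 33.2 CPM in ac-CYB5R3-KO hearts. The difference, in log2, was of the size of that of Slc25a4, at -0.93, but with an SE of 0.46 (exact permutation p = 0.152), and it was -0.15 without ac-WT mice 2 and 3. Slc25a47, known from liver, was low, at 2.73 ± 1.38 CPM in ac-WT and 1.71 ± 0.304 CPM in ac-CYB5R3-KO hearts (log2 fold change -0.67 ± 0.27, exact permutation p = 0.0476, edgeR adjusted p = 0.273). The latter was -0.20 without ac-WT mice 2 and 3, and without ac-WT mouse 3 alone -0.36, neither past 0.05. Slc25a35, Slc25a45 and Slc25a46, a protein of the outer membrane that acts in mitochondrial shape, had log2 fold changes from -0.09 to 0.09. With total counts as library size they were at 0.21, 0.32 and 0.19.

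Slc25a43, Slc25a48 and Slc25a54 were too low to test. Slc25a43 had 3, 0, 1, 1, 5 and 4 counts in ac-WT libraries 1 to 6 and 6, 7, 13, 6, 7 and 6 counts in the ac-CYB5R3-KO libraries, so the raw counts did not overlap. It was singled out after its values were seen, and without the filter on low counts its adjusted edgeR p was 0.296. Slc25a48 had 0 counts in every ac-WT library and at most 1 in an ac-CYB5R3-KO library, and Slc25a54 had at most 1 in any library. At this depth no difference was detectable for these 2.

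**Figure D4:**
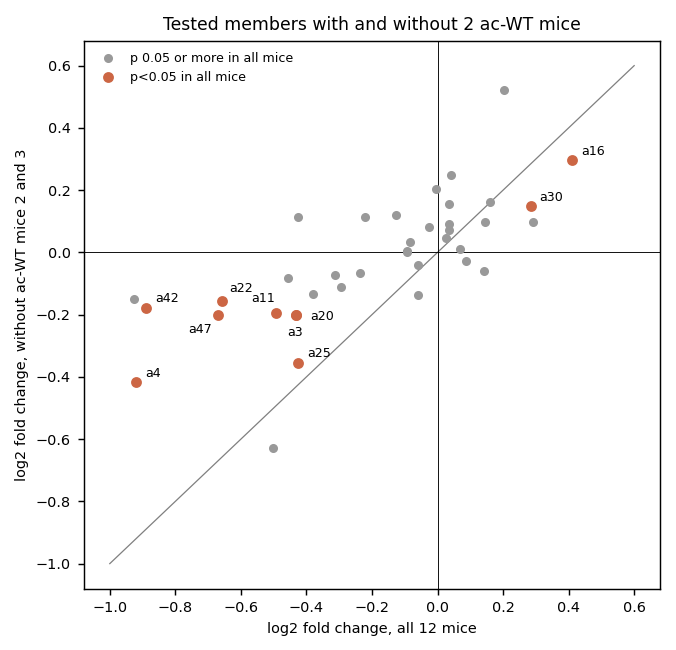
Log2 fold change of the tested members named in the text from all 12 mice (horizontal) against the same without ac-WT mice 2 and 3 (vertical), with the line of equal values and the members with p below 0.05 in orange. The orange members below 0 that are plotted all remain below 0 and nearer to it, from -0.92 to -0.42 for Slc25a4 and from -0.89 to -0.18 for Slc25a42.

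The genes that work beside the carriers were examined as a list of 34, of which 33 were tested. Their median log2 fold change was -0.22, with 9 lower and 2 higher at p below 0.05, and 2 lower and 1 higher at p below 0.01. Over all genes the median was -0.01, with 9.73% lower and 4.91% higher at p below 0.05. At p below 0.01 these shares were 3.27% and 1.33%. After adjustment edgeR called 0 of the 33 partners at an adjusted p below 0.05. Crat, the carnitine acetyltransferase and the highest of the carnitine shuttle enzymes, was lower by 0.72 ± 0.21 in log2 (mean 150.1 against 91.2 CPM, median 120.1 against 90.8 CPM, edgeR adjusted p = 0.186). Mpc2, a subunit of the pyruvate carrier, had a log2 fold change of -0.58 ± 0.19 (mean 226.0 against 150.8 CPM, median 191.9 against 155.1 CPM, edgeR adjusted p = 0.203). Values of the partners without ac-WT mice 2 and 3 are not given here. Ckmt1, the ubiquitous mitochondrial creatine kinase, was higher by 2.38 ± 0.45 in log2 at a low level (mean 0.368 against 2.00 CPM, edgeR adjusted p = 0.0715).

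The most abundant genes of the other partner groups were not past 0.01. Log2 fold changes were -0.51 for Ckmt2, the muscle form of mitochondrial creatine kinase, -0.12 for the malate dehydrogenase Mdh1 and -0.11 for the outer membrane channel Vdac1. They were -0.34 for the uniporter subunit Smdt1, 0.11 for the sideroflexin Sfxn3 and 0.19 for the carrier relative Mtch1.

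Markers of cell types were counted in the same fit, where 9.73% of all genes were lower and 4.91% higher at p below 0.05. Of 10 cardiomyocyte markers 4 were lower at p below 0.05 and 0 higher, and their summed level spanned 23530 to 54910 CPM in ac-WT against 17680 to 29980 CPM in ac-CYB5R3-KO (exact permutation p = 0.0866). Tnni3, Myl2 and Myl3 had log2 fold changes of -1.01, -1.22 and -0.87, near that of Slc25a4, while Tnnt2, Actc1 and Ryr2 were at -0.14, 0.08 and 0.04. Endothelial, fibroblast, and macrophage and lymphocyte markers had 0 of 8 genes each past 0.05. Smooth muscle markers had 4 of 6 lower and 1 higher. Of the skeletal muscle markers 2 of 4 tested were lower (Ckm and Myh4), and Myh1, Myh2, Myod1 and Pvalb were too low to test. Of the brown fat markers 2 of 4 tested were lower (Ppara and Prdm16), while Dio2 was at 0.91. Ucp1, Elovl3, Adipoq and Plin1 were too low to test.

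In the list of cartilage and airway markers 5 of 8 were tested, all of them cartilage genes. Of these, 4 were higher at p below 0.05, as were 4.91% of all genes. The summed level of the list, almost all from Comp and Col11a1, was 4.44 to 41.1 CPM in ac-WT and 59.1 to 128.7 CPM in ac-CYB5R3-KO hearts. The airway markers Scgb1a1, Sftpc and Foxj1 were too low to test. The part of these cell types in the carrier values was not tested.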

How the data were processed

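The deposited table holds raw read counts per Ensembl gene, made by the authors from single libraries of whole hearts prepared with a stranded total RNA kit. The study's methods name STAR and the mm9 genome, whereas the submitters' processing notes name STAR, featureCounts and GRCm39, so the build behind the counts is unsettled. The strand setting is not given in the sources used here, and 17 of 47 members overlap another annotated gene. Symbols came from GENCODE vM1 and RefSeq. The 12 columns carried 6 ac-WT and 6 ac-CYB5R3-KO mice, 0 columns were unused and no 2 libraries were identical. Members, classes, marker lists and ratio pairs were chosen with earlier results of these data known.

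Counts were filtered with edgeR's filterByExpr (minimum 10), scaled by TMM and tested with the edgeR 4.0.16 quasi-likelihood F-test in R 4.3.3, with Benjamini-Hochberg adjustment over 17847 genes. The fit was tested on simulated data. SEs were derived from the F statistic. Levels per length used the union of exons in GENCODE vM1, and with the longest coding transcript instead Slc25a36 ranked above Slc25a17. Exact permutation tests were two-sided. Members were named once each, except 1 that is not reported here, and per-mouse ranges were given for members with p below 0.01, the highest of each class per length and both iron carriers, with Slc25a5 added as the translocator paralog. Partners were named when p was below 0.01 or when highest in their group. Alternatives used DESeq2 1.42.0, limma 3.58.1, sva 3.50.0, other scalings and filters, a replicate block and fewer mice. Nothing in the sources says which mice shared litters, so p-values measure the spread between these 12 hearts.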

Additional observations from a re-analysis of the deposited data

Results flagged for a closer look

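In 54 groups of 6 hearts, 4 values lay far from the others by Dixon's gap test, which chance alone would give in about 1 group in 20. Slc25a4 stood at 5820 CPM in ac-WT mouse 2, where the next ac-WT heart had 3360 CPM. Slc25a22 stood at 30.1 CPM in ac-WT mouse 3, with the next at 15.1 CPM, and at 12.3 CPM in ac-CYB5R3-KO mouse 3, with the next at 8.96 CPM. The Slc25a39 to Slc25a40 log2 ratio was 3.87 in ac-WT mouse 2 and at most 3.15 in the other ac-WT hearts.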

How the results depend on the processing

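The number of members lower at p below 0.01 was 1 with edgeR and all mice. It was 3 with DESeq2 (Slc25a3, Slc25a4 and Slc25a42), 2 without the filter on low counts (Slc25a4 and Slc25a42) and 0 with 1 surrogate variable, and it ran from 0 to 3 when each mouse was left out. It fell to 0 without ac-WT mouse 3 or without ac-CYB5R3-KO mouse 1, 3 or 4, where the p of Slc25a4 rose to at most 0.0126. Genes of either direction past p below 0.01 numbered 820 with edgeR and all mice and 1238 with DESeq2. They numbered 1153 without the filter, 376 with 1 surrogate variable and 463 to 1169 when each mouse was left out. Members higher at p below 0.01 numbered 0, 1 without the filter (Slc25a43) and 0 to 1 when each mouse was left out. DESeq2 called 1 member (Slc25a4) at an adjusted p below 0.05, among 451 genes in all, and leaving out single mice gave 0 members in each edgeR fit. The median log2 fold change of the members was 0.19 with total counts as library size and 0.14 with total counts without mitochondrially encoded genes, where the medians of all genes were 0.26 and 0.21, and it ran from -0.13 to -0.04 when each mouse was left out. Under these 2 scalings 14 and 16 of 40 members were lower, against 26 with TMM, and of all genes with p below 0.01 the share lower was 33.1% and 39.4% against 71.1%. Relative to the median of all genes, the members' median was -0.07 under both.

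The sign of the log2 fold change turned for 12 of 40 members with total counts, 9 when ac-WT mice 2 and 3 were left out and 11 with 1 surrogate variable. Among the members given by mouse, Slc25a39 was at 0.27 with total counts, 0.21 without mitochondrially encoded genes, 0.000965 without the filter, 0.0824 without ac-WT mice 2 and 3 and 0.0543 with 1 surrogate variable. Slc25a13 was at 0.0218 with total counts, and with 1 surrogate variable Slc25a17 was at -0.0255 and Slc25a28 at 0.0375. The Slc25a22 to Slc25a18 ratio was at -0.33 with a pseudocount of 1. With each mouse left out, the log2 fold change of Slc25a37 ran from -0.0303 to 0.43 and that of Slc25a39 from -0.0709 to 0.059, and the log2 ratio differences ran from -0.0311 to 0.0788 for Slc25a12/Slc25a13, from -0.0556 to 0.15 for Slc25a22/Slc25a18 and from -0.33 to 0.0135 for Slc25a33/Slc25a36. The Slc25a4/Slc25a5 ratio stayed below 0, from -0.86 to -0.54. The causes were not tested.

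The deviations of same-numbered mice correlated by -0.08 to 0.35 with the own number best in 3 of 6, so the numbers were not taken as pairs. With the replicate block 1 member was lower at p below 0.01, namely Slc25a34 (p = 0.0085) in place of Slc25a4 (log2 fold change -0.80, p = 0.0118), the members' median was -0.09 and the paired Slc25a4/Slc25a5 difference was -0.75 (exact sign-flip permutation p = 0.0312, the smallest that 6 pairs can give). The Slc25a3/Slc25a4 difference gave p = 0.0625 in the exact paired permutation, Slc25a25/Slc25a24 0.0625 and Slc25a42/Slc25a16 0.125. Among all genes 672 in place of 820 were past p below 0.01. The 7 untested members had at most 22 counts in a library, which limits what could be detected for them.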
